A study of Mus musculus with 4 samples.

Results

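The proteasome is the protease that degrades most ubiquitin-tagged proteins of the cell, and ubiquitin-conjugating enzymes carry the ubiquitin that is put on those proteins. The genes described here are the proteasome subunits with their activators, inhibitor and assembly factors (symbols starting with Psma to Psmg) and the ubiquitin-conjugating enzymes (symbols starting with Ube2). They were selected by symbol, as a set chosen with earlier results of these data known. Their probes had a value on all 4 arrays and 1 gene symbol in the platform annotation, and the probes of a gene were averaged. This gave 60 genes, 39 of them Psm genes and 21 of them Ube2 genes, of 9153 named genes in all. They rested on 77 probes, and 50 of the 60 genes had 1 probe. Psmb11 and Psme4 had no probe with a value on every array and were left out of the counts.

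Lung RNA of BALB/cJ mice, an inbred strain, was hybridised on 4 dual-colour arrays. Of these, 2 came from mice exposed to air that contained UCP, which the labels do not spell out, and 2 from mice in particle-free air. On each array, lung of a mouse sensitized to ovalbumin, an egg protein used as an allergen, and then challenged with it was set against a pool of lung RNA from 6 control animals, taken as non-sensitized animals of the same air. Challenged lung carried Cy5 on array 1 and Cy3 on array 2 of each air. Sensitization and challenge were given together and cannot be told apart. The labels used here give neither age nor sex, and it is not stated there if separate mice were used for both arrays of an air. The p-values thus cover array-to-array spread, possibly only technical, and since the control was a pool they leave out the spread among control animals.

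Each value is a log2 ratio, challenged lung over control pool, so that 1 is a 2-fold higher level and 0 is no difference. The 4 arrays were found to run in the same direction, but which channel stands on top is likely rather than stated. The direction was taken from the common Cy5 over Cy3 order and from 7 genes typical of allergic mouse lung, which had a median of 3.13, and 6 of which lay above 0 on all 4 arrays. If the channels stand the other way, every sign, fold and order of genes below is turned round. Each array held between 19349 and 19832 values with a median between -0.07 and 0.02, and the number of arrays limits the precision. Between arrays, Spearman's rank correlation ran from 0.12 to 0.30 over all probes and from 0.08 to 0.56 over the 39 Psm genes. The lowest value in each range belonged to the 2 arrays of particle-free air, and the highest to array 2 of UCP air with array 2 of particle-free air, which share a dye orientation. The files hold ratios and no levels, so neither the lung origin of the RNA nor the abundance of any gene could be checked. In whole lung, more cells of a type and more RNA per cell cannot be told apart.

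The core particle of the proteasome is a barrel of stacked rings. The outer alpha rings (Psma genes) gate the entry, and the inner beta rings (Psmb genes) hold the active sites. The regulatory particle binds ubiquitin-tagged proteins, removes the tag and threads the chain into the barrel, using a ring of ATPases (Psmc genes) and non-ATPase subunits (Psmd genes). In immune cells and under interferon-gamma, Psmb8, Psmb9 and Psmb10 take the places of the constitutive active subunits Psmb5, Psmb6 and Psmb7, and the activator made of Psme1 and Psme2 joins the barrel. This form is known for making peptides for MHC class I.

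Most Psm genes lay slightly above 0 in challenged lung, while most Ube2 genes did not. On average over the arrays 39 of the 60 genes (65%) lay above 0, where 48.3% of all genes did, with 32 of the 39 Psm genes (82.1%) and 7 of the 21 Ube2 genes (33.3%). Of the 60 genes, 17 lay above 0 on all 4 arrays, which is 28.3%, where 14.2% of all genes did. Of these 17, 15 were Psm genes and the other 2 were Ube2d1 and Ube2f. Below 0 on all 4 arrays lay 5 of the 60 genes, or 8.33%, where 14.1% of all genes did. These were Psmb2, Ube2d3, Ube2g2, Ube2ql1 and Ube2w. The shifts were small: 0 of the 60 genes were at least 1.5-fold higher on all 4 arrays, where 1.16% of all genes were, and 0 were at least 1.5-fold lower, where 1.02% were. None of the 60 reached 2-fold on all 4 arrays, where 0.295% of all genes were higher and 0.306% lower. At 1.2-fold, 6 genes (10%) were higher on all 4 arrays, where 4.49% of all genes were. They were Psmb1, Psmb4, Psmb8, Psmd2, Psmd10 and Psme2. The 2 genes that were at least 1.2-fold lower on all 4 arrays were Ube2g2 and Ube2ql1 (3.33%, where 3.55% of all genes were).

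No member passed the test across all genes. For the average of both airs, limma (two-sided, Benjamini-Hochberg over 9153 genes, threshold 0.05) called 0 of the 60, with the smallest adjusted p at 0.157 for Psmd10, where 0.0983% of all genes were called. At an unadjusted p under 0.05, 12 members were higher (20%, where 8.06% of all genes were) and 4 lower (6.67%, where 7.56% were). The 12 were Psma2, Psma5, Psmb1, Psmb4, Psmb8, Psmb10, Psmd2, Psmd10, Psmd14, Psme1, Psme2 and Ube2f. The count of 12 was smaller whichever array was left out, and the share of all genes in those fits is not given here. The 4 lower members were Psmb2, Ube2g2, Ube2ql1 and Ube2w, and fewer were lower without array 1 or without array 2 of UCP air. Leaving out 1 array leaves that air with 1 array, assumed to vary like the other air, and 1 residual degree of freedom. Such changes in count also follow the spread of the remaining pair and do not show which arrays carry a shift. Averages moved to a different extent by gene. Without array 1 or array 2 of UCP air, Psmb1 was at 0.51 and 0.56, Psmb2 at -0.57 and -0.72 and Ube2ql1 at -0.83 and -0.82. Psme1 was at 0.96 and 0.44, beside 0.86 with all arrays, and Psmd10 at 0.58 and 0.69, beside 0.73. All of these kept their sign.

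**Figure D1:**
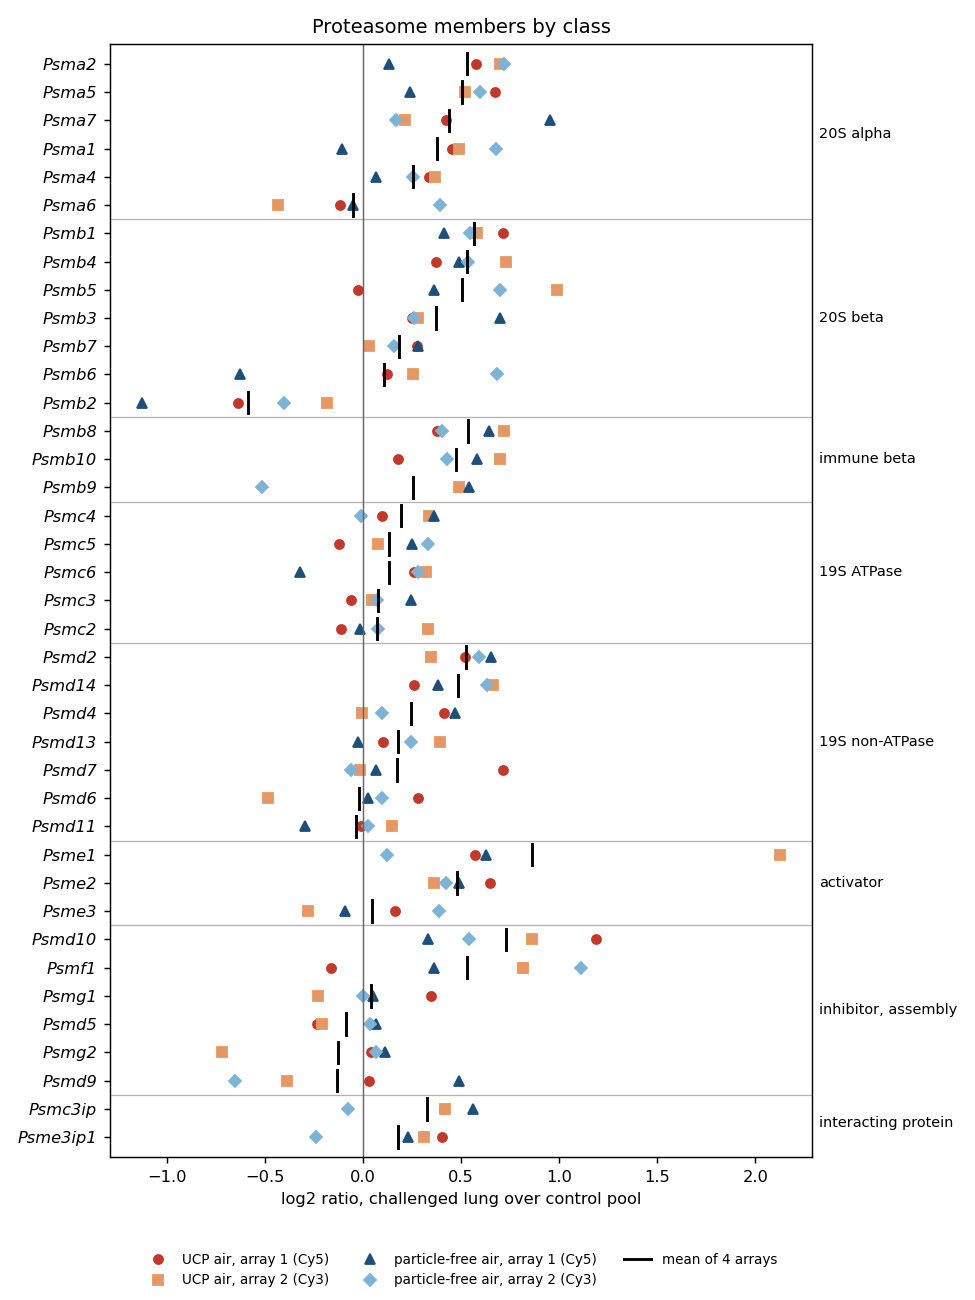
Log2 ratio of challenged lung over its control pool for the 39 Psm genes, by class, with 1 point per array and a bar at the mean of 4 arrays. Most bars of the core and immune classes lie right of 0, Psmb2 lies left of 0 on every array, and the 19S ATPases lie close to 0.

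The alpha ring had 6 measured subunits, 5 of them with an average above 0 and 4 above 0 on all 4 arrays, with a median of 0.41. Psma2 lay at 0.58 and 0.70 on the arrays of UCP air and at 0.13 and 0.72 on those of particle-free air. Array 1 of particle-free air was its lowest and the airs overlapped, with an average of 0.53 ± 0.27 (SD, n = 4, limma adjusted p = 0.262). Psma5 averaged 0.51 ± 0.19, Psma7 0.44 ± 0.36, Psma1 0.38 ± 0.34 and Psma4 0.25 ± 0.14 (SD, n = 4 each). Psma7 was highest on array 1 of particle-free air (0.95), the array on which Psma1 was at its lowest (-0.11). Psma6 was the exception, with -0.12 and -0.43 in UCP air and -0.05 and 0.39 in particle-free air. Its average was -0.05 ± 0.34 (SD, n = 4), and it turned to 0.07 without array 2 of UCP air.

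The beta ring had 7 constitutive subunits, 6 with an average above 0 and 4 above 0 on all 4 arrays, with a median of 0.37. Psmb1, a structural subunit with no active site, lay at 0.72 and 0.58 in UCP air and at 0.41 and 0.55 in particle-free air. It had the highest average of the core, 1.48-fold, or 0.676-fold if the direction is turned (0.56 ± 0.12, SD, n = 4, limma adjusted p = 0.198). Psmb4, another subunit without an active site, lay at 0.37 and 0.73 in UCP air and at 0.49 and 0.53 in particle-free air, with an average of 0.53 ± 0.15 (SD, n = 4). Psmb3, which lacks an active site too, averaged 0.37 ± 0.22 (SD, n = 4).

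Psmb2, which also lacks an active site and sits in the same ring, went the other way. It lay at -0.64 and -0.18 in UCP air and at -1.13 and -0.41 in particle-free air. All 4 arrays were below 0, with an average of -0.59 ± 0.41 (SD, n = 4, limma adjusted p = 0.281). Its average was -0.41 without array 1 of particle-free air, its lowest array. Psmb2 rested on 1 probe.

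Of the 3 constitutive active subunits, Psmb5 and Psmb6 varied between arrays and Psmb7 was even. Psmb5, which carries the chymotrypsin-like site, lay at -0.03 and 0.99 in UCP air and at 0.36 and 0.70 in particle-free air, so that both of its higher values came from arrays with challenged lung in Cy3. Psmb6, with the caspase-like site, lay at 0.12 and 0.25 in UCP air and at -0.63 and 0.68 in particle-free air. Its 2 probes disagreed, with averages of 0.46 and -0.24, and the lower probe stood at -1.81 on array 1 of particle-free air. Psmb7, with the trypsin-like site, lay at 0.28 and 0.03 in UCP air and at 0.28 and 0.16 in particle-free air. Their averages were 0.51 ± 0.44, 0.11 ± 0.55 and 0.18 ± 0.12 (SD, n = 4 each).

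The immune subunits lay above 0 on nearly all arrays. Psmb8 lay at 0.37 and 0.72 in UCP air and at 0.64 and 0.40 in particle-free air, with an average of 0.53 ± 0.17 (SD, n = 4, limma adjusted p = 0.232). Psmb10 lay at 0.18 and 0.70 in UCP air and at 0.58 and 0.43 in particle-free air, averaging 0.47 ± 0.22 (SD, n = 4, limma adjusted p = 0.284). For both genes the 2 airs overlapped. Psmb9 lay at 0.49 and 0.49 in UCP air and at 0.54 and -0.51 in particle-free air. Array 2 of particle-free air stood apart, and the average was 0.25 ± 0.51 (SD, n = 4, limma adjusted p = 0.611) with it and 0.51 without it.

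The interferon-inducible activator subunits Psme1 and Psme2 lay above 0 on all 4 arrays. Psme2 lay at 0.65 and 0.36 in UCP air and at 0.49 and 0.42 in particle-free air, an average of 0.48 ± 0.12 (SD, n = 4, limma adjusted p = 0.244). Psme1 lay at 0.57 and 2.13 in UCP air and at 0.63 and 0.12 in particle-free air. Array 2 of UCP air decided its average, which was 0.86 ± 0.87 (SD, n = 4, limma adjusted p = 0.306) with that array and 0.44 without it. Psme3, which forms a nuclear activator of its own and is not an immune subunit, averaged 0.04 ± 0.29 (SD, n = 4).

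The immune subunits were set against the constitutive subunits they replace. On the same array, Psmb8 minus Psmb5 was 0.40 and -0.27 in UCP air and 0.28 and -0.30 in particle-free air. Psmb9 minus Psmb6 was 0.37 and 0.24 in UCP air and 1.17 and -1.2 in particle-free air. Psmb10 minus Psmb7 was -0.10 and 0.67 in UCP air and 0.30 and 0.27 in particle-free air. The averages were 0.03 ± 0.36, 0.14 ± 0.99 and 0.29 ± 0.31 (SD, n = 4 each), so that in each the spread between arrays was larger than the difference. The first changed sign without array 1 of UCP air (-0.10) or without array 1 of particle-free air (-0.06), and the second changed sign without array 1 of particle-free air (-0.20) and was 0.59 without array 2 of particle-free air. The third stayed above 0 whichever array was left out, at 0.16 to 0.41.

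**Figure D2:**
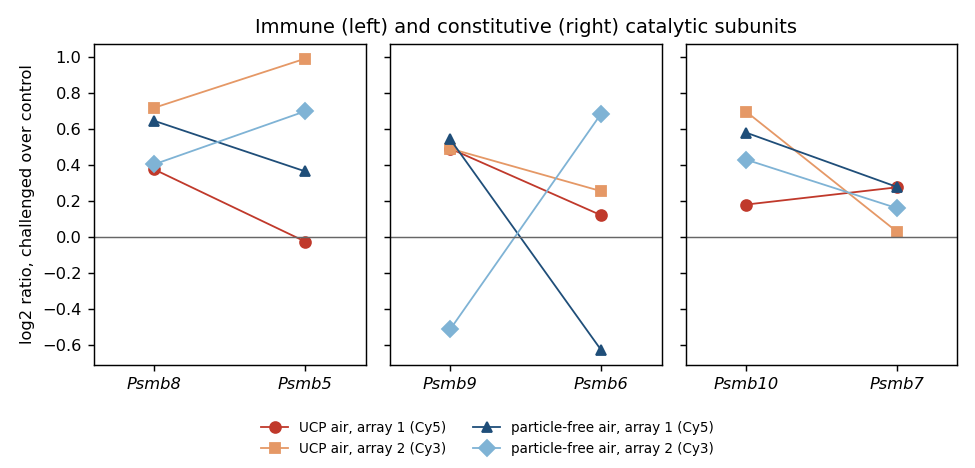
Log2 ratio of challenged lung over control pool for each immune catalytic subunit (left) and the constitutive subunit it replaces (right), with 1 line per array. The lines cross in all 3 panels, and array 2 of particle-free air has Psmb9 at -0.51 and Psmb6 at 0.68.

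Psmb8 and Psmb9 lie in the MHC class II region of chromosome 17, interleaved with Tap1 and Tap2, which encode the peptide transporter of class I presentation. Psme1 and Psme2 lie close to each other on chromosome 14, with Emc9 between them. Psmb9 and Tap1 are read in opposite directions from start sites 226 bases apart, so that their promoter windows overlap by 275 of 300 bases. The 2 genes lay on opposite sides of 0 on most arrays. Tap1 lay at -0.65 and -0.07 in UCP air and at -0.75 and -0.95 in particle-free air, below 0 on all 4 arrays (-0.61 ± 0.38, SD, n = 4, limma adjusted p = 0.231). Psmb9 was above 0 on 3 of the same 4 arrays.

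Promoter windows of RefSeq genes ran from 250 bases before to 50 bases after the annotated start (build GRCm38.p6). They are shown for the 3 immune genes that held a match to a sequence named below and for the constitutive subunit Psmb5. Psmd10, which had the smallest p among the members, is shown too. Capitals mark matches, on either strand, to TGACNNNGC (the core of the antioxidant response element), CCAAT (the CCAAT box), TTCNNNGAA (the interferon-gamma activated site) or GAAA followed after any 2 bases by GAAA (the core of the interferon-stimulated response element). No matches overlapped in these windows.
Psmb9, chr17:34187281-34187580, minus strand: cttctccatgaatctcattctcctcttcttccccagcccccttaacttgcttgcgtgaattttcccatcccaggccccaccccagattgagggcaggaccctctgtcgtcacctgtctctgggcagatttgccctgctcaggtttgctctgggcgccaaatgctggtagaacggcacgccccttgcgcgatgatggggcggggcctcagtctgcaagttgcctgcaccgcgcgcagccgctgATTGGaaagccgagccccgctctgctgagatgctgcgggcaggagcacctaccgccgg
Psmb8, chr17:34197945-34198244, plus strand: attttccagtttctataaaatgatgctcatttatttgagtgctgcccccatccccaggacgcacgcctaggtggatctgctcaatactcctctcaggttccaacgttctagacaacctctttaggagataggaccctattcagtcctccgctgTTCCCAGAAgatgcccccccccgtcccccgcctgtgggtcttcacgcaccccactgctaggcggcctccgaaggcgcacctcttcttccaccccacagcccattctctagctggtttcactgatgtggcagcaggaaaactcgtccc
Psme1, chr14:55578244-55578543, plus strand: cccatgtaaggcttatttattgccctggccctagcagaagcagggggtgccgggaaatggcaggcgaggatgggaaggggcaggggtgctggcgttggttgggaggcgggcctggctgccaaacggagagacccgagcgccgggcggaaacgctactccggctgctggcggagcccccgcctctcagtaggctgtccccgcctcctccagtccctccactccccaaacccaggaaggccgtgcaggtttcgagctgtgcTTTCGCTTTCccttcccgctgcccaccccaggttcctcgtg
Psmb5, chr14:54617946-54618245, minus strand: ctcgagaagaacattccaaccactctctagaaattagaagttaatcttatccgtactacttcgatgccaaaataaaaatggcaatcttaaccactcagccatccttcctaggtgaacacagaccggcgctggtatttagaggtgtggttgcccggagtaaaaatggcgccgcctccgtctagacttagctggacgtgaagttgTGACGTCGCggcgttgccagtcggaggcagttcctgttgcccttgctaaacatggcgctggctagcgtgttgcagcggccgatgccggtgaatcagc
Psmd10, chrX:140956662-140956961, minus strand: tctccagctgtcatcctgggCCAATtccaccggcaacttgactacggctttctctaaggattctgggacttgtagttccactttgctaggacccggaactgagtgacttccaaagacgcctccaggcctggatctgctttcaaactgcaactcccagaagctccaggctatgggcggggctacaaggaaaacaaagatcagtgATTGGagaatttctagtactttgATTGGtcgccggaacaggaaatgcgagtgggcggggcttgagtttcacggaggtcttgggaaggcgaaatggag

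The window of Psmb9, shared with Tap1, held a CCAAT box at position -8 from the start of Psmb9. That of Psmb8 held an interferon-gamma activated site at position -97, and that of Psme1 held a match to the interferon-stimulated response element after its start. The other immune genes, Psmb10 and Psme2, were searched too and held no match. Of the 5 immune genes, 1 thus held an interferon-gamma activated site and 1 an interferon-stimulated response element core. Psmb5 had an antioxidant response element core at position -47, and Psmd10 had 3 CCAAT boxes. A window was given for 50 of the 60 members. Among the 33 Psm genes with a window, 13 held a CCAAT box, where 41.1% of all genes did, and 4 an antioxidant response element core, where 14% did. An interferon-gamma activated site was held by 3 of these 33, where 9.55% of all genes held it, and an interferon-stimulated response element core by 4, where 3.99% did. These matches describe the letters of the windows and were not set against the ratios.

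The regulatory particle lay closer to 0 than the core. Its 12 measured subunits had a median of 0.15, with 10 averages above 0 but only 2 subunits above 0 on all 4 arrays. The 5 ATPases, which unfold the substrate, had averages between 0.07 and 0.20, and 0 of them lay above 0 on all 4 arrays. Psmc4 was highest among them, with 0.10 and 0.34 in UCP air and 0.36 and -0.01 in particle-free air. Psmc2 was lowest, with -0.11 and 0.33 in UCP air and -0.01 and 0.08 in particle-free air. Psmc3, Psmc5 and Psmc6 averaged 0.08 ± 0.13, 0.13 ± 0.20 and 0.13 ± 0.30 (SD, n = 4 each).

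Among the 7 non-ATPase subunits, 2 stood above 0 on all 4 arrays. Psmd2, a scaffold of the base that binds ubiquitin-like domains, lay at 0.52 and 0.35 in UCP air and at 0.65 and 0.59 in particle-free air, an average of 0.53 ± 0.13 (SD, n = 4, limma adjusted p = 0.217). Both arrays of particle-free air were at least 1.5-fold higher, which no other member reached there and 3.73% of all genes did. Psmd14, the deubiquitinase of the lid, lay at 0.26 and 0.66 in UCP air and at 0.38 and 0.63 in particle-free air, an average of 0.48 ± 0.20 (SD, n = 4). Psmd4, a ubiquitin receptor, averaged 0.24 ± 0.23, Psmd13 0.18 ± 0.18 and Psmd7, the partner of Psmd14 in the lid, 0.17 ± 0.36 (SD, n = 4 each). Psmd6 and Psmd11, both of the lid, averaged -0.02 ± 0.33 and -0.03 ± 0.19 (SD, n = 4 each).

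Psmd10, a chaperone of regulatory particle assembly also called gankyrin, had the highest average after Psme1. It lay at 1.19 and 0.86 in UCP air and at 0.33 and 0.54 in particle-free air. All arrays were above 0 and both of UCP air lay above both of particle-free air, with an average of 0.73 ± 0.38 (SD, n = 4), or 1.66-fold, and 0.603-fold if the direction is turned. Psmd10 was the only member at least 1.5-fold higher on both arrays of UCP air, where 2.93% of all genes were. At least 1.5-fold lower on both arrays were 0 members in UCP air and 0 in particle-free air, where 3.82% and 3.58% of all genes were. The related chaperones Psmd5 and Psmd9 averaged -0.09 ± 0.16 and -0.13 ± 0.50 (SD, n = 4 each), with Psmd9 at 0.03 and -0.39 in UCP air and at 0.49 and -0.65 in particle-free air. Psmg1 and Psmg2, which form a dimer that assembles the alpha ring, averaged 0.04 ± 0.24 and -0.13 ± 0.40 (SD, n = 4 each). Psmf1, described as a proteasome inhibitor, lay at -0.16 and 0.82 in UCP air and at 0.36 and 1.11 in particle-free air, highest on both arrays with challenged lung in Cy3.

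A pair of genes share the symbols but are not subunits. Psmc3ip, a cofactor of meiotic recombination, lay at 0.41 and 0.42 in UCP air and at 0.56 and -0.08 in particle-free air. Psme3ip1, which binds Psme3, averaged 0.18 ± 0.28 (SD, n = 4), and its 4 probes ran from -0.06 to 0.74 in their averages.

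Ubiquitin-conjugating enzymes leaned to the other side of 0 by a little. Of the 21, 7 had an average above 0 and 14 below, with a median of -0.07, where the median of all genes was -0.01. On all 4 arrays, 2 lay above 0 (9.52%, where 14.2% of all genes did) and 4 below (19%, where 14.1% did). Ube2f, which conjugates the ubiquitin-like protein Nedd8, was highest, with 0.45 and 0.78 in UCP air and 0.24 and 0.32 in particle-free air. The arrays of the airs did not overlap, and the average was 0.45 ± 0.24 (SD, n = 4, limma adjusted p = 0.268). Ube2d1, of the broadly acting Ube2d family, was the most even of all enzymes at 0.26 ± 0.07, while its relatives Ube2d2a and Ube2d3 averaged -0.38 ± 0.48 and -0.46 ± 0.29 (SD, n = 4 each).

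Ube2ql1 was lowest, with -0.50 and -0.52 in UCP air and -0.51 and -1.45 in particle-free air. Array 2 of particle-free air stood apart, and the average was -0.75 ± 0.47 (SD, n = 4, limma adjusted p = 0.232) with it and -0.51 without it. Ube2g2, an enzyme of endoplasmic reticulum-associated degradation, lay at -0.77 and -0.47 in UCP air and at -0.30 and -0.89 in particle-free air (-0.61 ± 0.27, SD, n = 4, limma adjusted p = 0.239). Ube2j1 and Ube2j2, which act in the same degradation pathway, averaged -0.16 ± 0.16 and 0.28 ± 0.51 (SD, n = 4 each). Ube2w, which tags the amino terminus of its substrates, averaged -0.48 ± 0.27 (SD, n = 4). The Rad6 homologs Ube2a and Ube2b averaged -0.06 ± 0.13 and -0.18 ± 0.39, and Ube2n, the maker of non-degradative chains in immune signalling, -0.07 ± 0.11 (SD, n = 4 each). Ube2c, the enzyme of the anaphase-promoting complex, lay at -0.17 and 0.05 in UCP air and at 0.83 and -0.12 in particle-free air.

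The other enzymes showed no side that held on all arrays. Ube2h, Ube2k, Ube2l3, Ube2r2 and Ube2u had averages between -0.23 and 0.06. Ube2z lay at 0.16 and -0.27 in UCP air and at 0.21 and 0.21 in particle-free air, but it was the only member whose probes differed by more than 1 in their averages, with 0.74, -0.19 and -0.31 for its 3 probes.

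**Figure D3:**
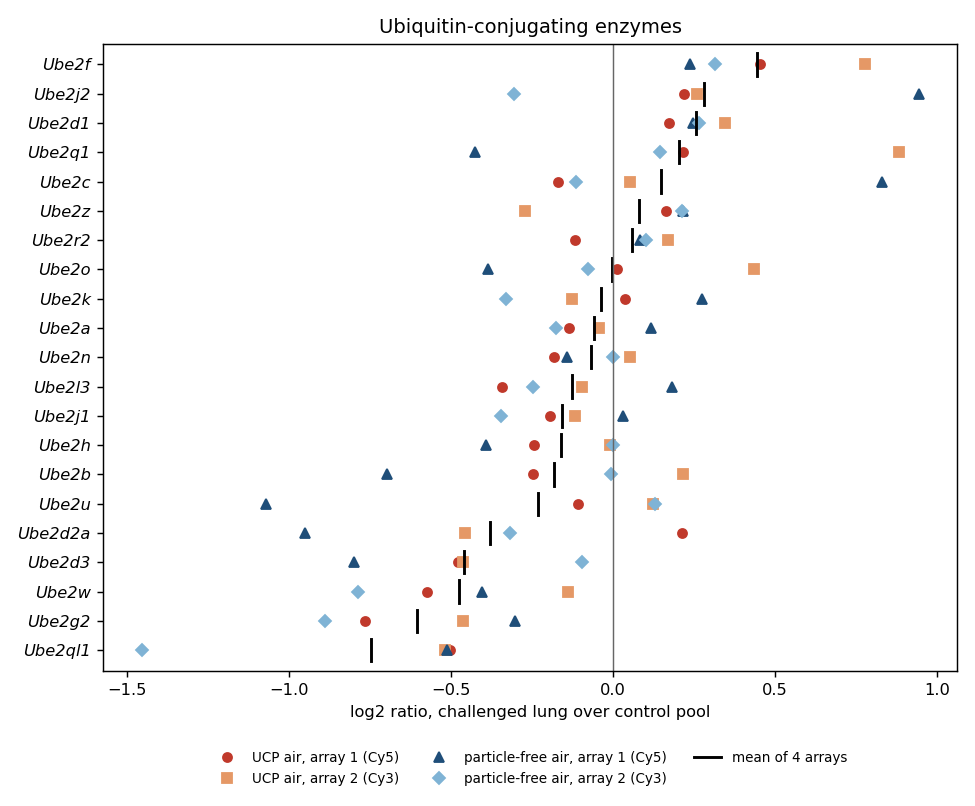
Log2 ratio of challenged lung over control pool for the 21 Ube2 genes, ordered by the mean of 4 arrays (bar), with 1 point per array. The means run from 0.45 for Ube2f to -0.75 for Ube2ql1, and 14 of the 21 lie below 0.

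The classes were then set side by side. The 5 immune genes (Psmb8, Psmb9, Psmb10, Psme1 and Psme2) had a median of 0.48, the 13 core subunits of 0.38, the 12 regulatory subunits of 0.15 and the 21 Ube2 genes of -0.07. The core median was above that of the regulatory particle on 4 of 4 arrays, by 0.16 and 0.13 in UCP air and by 0.09 and 0.43 in particle-free air. It was above that of Ube2 genes on 4 of 4 arrays too, by 0.47 and 0.37 in UCP air and by 0.38 and 0.63 in particle-free air. The immune median was above that of the core on 3 of 4 arrays, with 0.15 and 0.33 in UCP air and 0.34 and -0.13 in particle-free air. Since genes of a class share arrays and RNA, these differences are a description with no test. By dye, the core had a median of 0.28 on the arrays with challenged lung in Cy5 and 0.47 on those in Cy3, and the immune genes 0.52 and 0.56.

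A shift of this size was not found in the proteasome alone. The 60 cytosolic ribosomal protein genes had a median of 0.40, 56 of them above 0 on average and 32 on all 4 arrays. The 85 genes of the mitochondrial respiratory chain had a median of -0.01, with 41 above 0 on average and 13 on all 4 arrays.

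**Figure D4:**
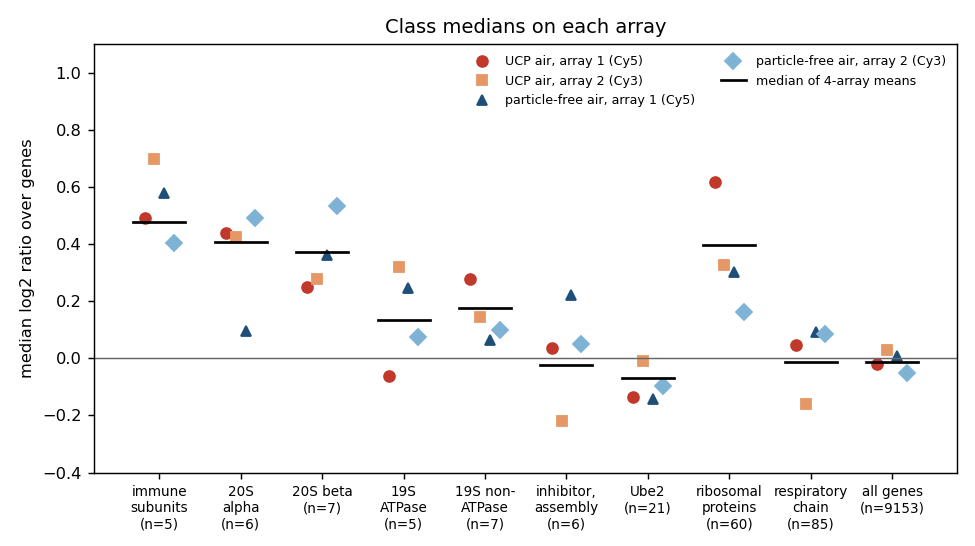
Median log2 ratio over the genes of each class on each array (points) and of the 4-array averages (bar), with ribosomal proteins, respiratory chain and all 9153 genes for comparison. Immune and alpha and beta ring medians lie above 0 on all 4 arrays, Ube2 medians below 0, and all genes close to 0.

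Both airs were then set against each other, each against its own control pool. In UCP air, 7 members were higher and 0 lower at an unadjusted limma p under 0.05 (11.7%, where 4.45% of all genes were higher, and 0%, where 4.93% were lower). In particle-free air 1 was higher and 2 lower (1.67%, where 5.58% of all genes were higher, and 3.33%, where 5.7% were lower). In both airs the count of higher members moved when 1 array of the same air was left out. The air then had 1 array and took its spread from the other air. With each array centred on its median, 3 were higher in particle-free air and 1 lower in UCP air, and by probe 4 were higher in particle-free air. With the dye orientation (replicate number) as a block, 3 were higher in UCP air and 2 in particle-free air. The shares of all genes above belong to the main fit, and none is given for these other settings. The changes in count can thus not be read as a trait of the members. After adjustment limma called 0 members in either air, where 0.0219% of all genes were called in UCP air and 0.0109% in particle-free air. For the difference, UCP minus particle-free air, 0 members passed with or without adjustment, and the smallest limma adjusted p was 0.979. At an unadjusted p, 1.79% of all genes were higher and 2.15% lower in that difference. A p that misses the threshold does not show that the airs acted alike.

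The arrays of the airs did not overlap for 14 members, 7 higher in UCP air (11.7%, where 16.9% of all genes were) and 7 lower (11.7%, where 15.4% were). For 2 members, Psmd5 and Ube2o, the airs lay on opposite sides of 0 (3.33%, where 7.7% of all genes did). Psmd5 averages 2 probes, of which 1 lay below 0 on all 4 arrays. Only the other was split by air, at -0.05 and -0.36 in UCP air and 0.25 and 0.30 in particle-free air. Among the 14 members without overlap, the 5 largest differences were those of Ube2q1, Psmd10, Ube2o, Psma6 and Psmg2. Ube2q1 lay at 0.22 and 0.88 in UCP air and at -0.43 and 0.15 in particle-free air, a difference of 0.69. Psmd10 differed by 0.59 with a standard error of 0.29. Ube2o lay at 0.01 and 0.44 in UCP air and at -0.39 and -0.08 in particle-free air. Psmg2 lay at 0.04 and -0.72 in UCP air and at 0.11 and 0.07 in particle-free air, so that 1 array made its difference of -0.43. Psma6 differed by -0.44.

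**Figure D5:**
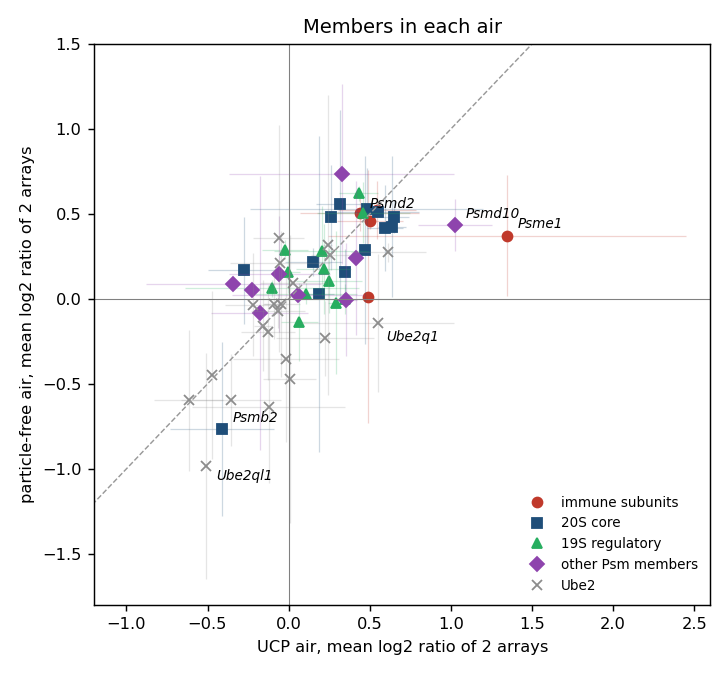
Mean log2 ratio of the 2 arrays of UCP air against that of the 2 arrays of particle-free air for the 60 members, with thin bars for the SD of 2 arrays and a dashed line where both airs are equal. Most Psm genes lie above 0 in both airs, and Psme1 and Ube2q1 lie furthest from the dashed line toward UCP air.

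Genes around the proteasome followed no common direction. Of 12 measured genes for ubiquitin-activating enzymes and ubiquitin-like proteins, 9 lay above 0 on average and 5 on all 4 arrays, with Sumo3 at 0.65 ± 0.27 and Nedd8, the partner of Ube2f, at 0.47 ± 0.18 (SD, n = 4 each). Ufm1, another ubiquitin-like protein, averaged 0.87 ± 1.33 through array 2 of UCP air (2.84). Fau, which encodes a ubiquitin-like protein fused to a ribosomal protein, averaged 0.43 ± 0.41. In the list of ubiquitin, shuttle and accessory factors, 6 of 9 lay above 0. Pomp, the chaperone that completes the core particle, lay at 0.45 and 0.48 in UCP air and at 0.23 and 0.73 in particle-free air, above 0 on all 4 arrays like most of the core. Txnl1, a proteasome-associated thioredoxin, averaged 0.41 ± 0.18, Nploc4 -0.38 ± 0.22 and Ubqln1 -0.24 ± 0.21 (SD, n = 4 each).

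Deubiquitinases were balanced, with 15 of 30 above 0. Usp39 averaged 1.15 ± 0.99, Stambp 0.58 ± 0.26, Usp5 0.51 ± 0.45 and Uchl1 -0.54 ± 0.30 (SD, n = 4 each). Of 20 ubiquitin ligase genes 8 lay above 0, and Skp1, a subunit of cullin ligases, lay at -1.21 and -0.77 in UCP air and at -0.66 and -0.17 in particle-free air. Huwe1, Cbl and Smurf1 averaged -0.56 ± 0.52, -0.54 ± 0.28 and 0.37 ± 0.37 (SD, n = 4 each). Among 5 measured genes listed for the control of proteasome gene transcription, only Keap1 lay above 0 on average. Nfe2l1, which drives proteasome genes when the proteasome is inhibited, averaged -0.30 ± 0.31, the NF-Y subunits Nfya and Nfyc -1.01 ± 0.69 and -0.07 ± 0.68, and Keap1 0.04 ± 0.21 (SD, n = 4 each). In all of these lists limma called 0 genes over all genes in the average of both airs. At an unadjusted p under 0.05, 2 of 12, 2 of 9, 3 of 30, 0 of 20 and 0 of 5 genes were higher in the order given, and 0, 0, 2, 3 and 1 were lower, where 8.06% of all genes were higher and 7.56% lower.

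Class I presentation, the pathway that immune proteasomes feed, was split. Of 6 measured genes, 3 lay above 0 on all 4 arrays and Tap1 below 0 on all 4. The class I heavy chain H2-K1 averaged 0.66 ± 0.23, its light chain B2m 0.53 ± 0.26 and the chaperone Calr 0.48 ± 0.29 (SD, n = 4 each). Among 13 interferon response and regulator genes 9 lay above 0 on average. Irf8 averaged 0.77 ± 0.18, Oas1a 0.61 ± 0.36, Irf1 0.42 ± 0.25 and Stat2 0.36 ± 0.31 (SD, n = 4 each). By limma 0 of these genes passed over all genes. At an unadjusted p under 0.05, 3 of the 6 class I genes were higher and 1 lower, and 3 of the 13 interferon genes were higher and 0 lower, beside the same 8.06% and 7.56% of all genes.

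Markers of other cells moved in the same arrays. Of the 6 measured macrophage markers 4 lay above 0 on all 4 arrays, with a list median of 0.62 and Ctss and Mrc1 at 2.27 ± 0.36 and 1.82 ± 0.22 (SD, n = 4 each). The other 2, Lyz2 and Marco, averaged -0.34 ± 0.33 and -0.36 ± 0.36 (SD, n = 4 each). Of 8 neutrophil markers 5 lay above 0 on all 4 arrays (median 0.72), and of 21 cell cycle genes 13 did (median 0.43), with Cks1b at 1.44 ± 0.37 and Cdc20 at 0.93 ± 0.32 (SD, n = 4 each). Ube2c, which works with Cdc20, lay on both sides of 0. Of the 2 measured B and plasma cell markers, Pou2af1 averaged 1.31 ± 0.48 and Blk -0.05 ± 0.21 (SD, n = 4 each). T cell markers had a median of -0.72 in UCP air and -0.08 in particle-free air (6 genes). Liver genes had a median of 0.38 in UCP air and 3.21 in particle-free air (9 genes). For genes of heart and striated muscle the median was -2.59 in UCP air and 0.02 in particle-free air (9 genes). Nppa among them passed in the average of both airs (limma adjusted p = 0.0491). It lay at -5.72 and -5.91 in UCP air but at 0.38 and -0.17 in particle-free air. By air, limma called 1 of these 9 genes in UCP air and 0 in particle-free air, where 0.0219% and 0.0109% of all genes were called. For UCP minus particle-free air, limma called 0 genes of either list and 0 of all 9153 genes. Of the 3 measured lung epithelium markers, Cyp2f2 and Sftpb averaged -1.29 ± 0.39 and -0.88 ± 0.25 and Sftpc 0.06 ± 0.28 (SD, n = 4 each). The part of these cells and tissues in the ratios of proteasome genes was not tested.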

How the data were processed

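The deposited table holds log2 ratios of the 2 channels of each array, made by the authors with a normalization, scanner and image software not given in the sources used here. Per the labels' protocols, 20 µg of total RNA from individual organs was labelled indirectly and set against the control pool. The labels gave group, dye and replicate number. Scale and direction were read from the values: the extreme of each array was a plateau at a ratio of 100000 plus a constant, positive on Cy5 and negative on Cy3 arrays. With that constant removed, 100% of ratios under 0.3 were whole steps of 0.001. Values already ran 1 way and were used as deposited. Of 20205 probes, 13852 had 1 symbol, 0 several and 6353 none, and 18160 had values on all 4 arrays. All 60 members matched RefSeq genes by Entrez identifier.

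Gene averages were fitted with limma 3.58.1 in R 4.3.3, with 1 coefficient per air, 2 residual and 2.37 prior degrees of freedom, with Benjamini-Hochberg adjustment across 9153 genes. The fit was tested on simulated data. Same-numbered arrays share a dye orientation, and their deviations correlated at 0.06 over genes (Pearson), or 0.09 with probes at the plateau left out. Class and list values are descriptions with no test. Members and lists were chosen with earlier results of these data known. Genes named with values on all 4 arrays are the immune subunits and their counterparts and the extremes of each class. The 5 largest differences between airs that do not overlap, and members whose probes disagree, are named so too. From each pathway, cell cycle and macrophage list, up to 4 genes with the largest averages in absolute size, higher or lower, were taken. Values on all arrays of Psmb4, Psmd14, Psmf1, Ube2g2 and Ube2c, and the other marker genes, were added after their values were seen. No filter on dim probes was possible.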

Additional observations from a re-analysis of the deposited data

Results flagged for a closer look

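In 7 of the 60 members 1 of the 4 arrays lay far from the other 3 by Dixon's test at 95%, which is 11.7%, where 7.43% of all genes were so and chance flags about 1 in 20. Array 2 of particle-free air stood low for Psmb9 (-0.51) and for Ube2ql1 (-1.45). Array 1 of particle-free air stood high for Psmb3 (0.70) and low for Psmc6 (-0.32). Array 1 of UCP air stood high for Psmd7 (0.71), and array 2 of UCP air stood low for Psmg2 (-0.72) and for Ube2z (-0.27). The probes of Ube2z disagree. Of these, 1 was lowest on array 2 of particle-free air (-0.689), and the others on array 2 of UCP air (-0.685 and 0.283). Each air has only 2 arrays, so the test was made over both airs.

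For 2 members, or 3.33% where 7.7% of all genes did so, every array of UCP air lay on one side of 0 and every array of particle-free air on the other. Psmd5 differed by -0.27 (limma adjusted p = 0.979) and Ube2o by 0.46 (limma adjusted p = 0.979), UCP minus particle-free air. Of the 2 probes of Psmd5, 1 lay below 0 on all 4 arrays and did not show the split.

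Both members without a value on every array lay high on the 3 arrays that gave one. Psme4, an activator of the proteasome known from DNA repair and spermatogenesis, lay at 2.21 on array 2 of UCP air and at 2.16 and 1.39 in particle-free air, an average of 1.92. Psmb11, the beta subunit of thymus epithelium, lay at 1.78 and 3.28 in UCP air and at 1.38 on array 1 of particle-free air, an average of 2.15. Each rests on 1 probe.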

How the results depend on the processing

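The count of members called was 0 in all 4 comparisons under every alternative run: arrays centred, centred and scaled, probes summarised by the median, probes on at least 3 arrays, capped probes or genes with disagreeing probes left out, the fit by probe, eBayes with trend and robust settings, each array left out in turn, and the replicate number, here the dye orientation, as a block. With the replicate block the smallest limma adjusted p was 0.287 for the average of both airs, and members called stayed at 0. At 1.2-fold in place of 1.5-fold, 6 members were higher and 2 lower on all 4 arrays; at 2-fold, 0 were. Without 1 array, the count above 0 on all remaining arrays ran from 21 to 22 and the count below 0 from 6 to 8, as fewer arrays have to agree. The Ube2 median ran from -0.136 (without array 2 of UCP air) to -0.0536 without 1 array. Class medians, within-array differences and members' averages gave 439 values under the alternatives, 437 of them within 1 SD between arrays of the reported value. Leaving out 1 of 4 arrays cannot move an average by 1 SD, and settings on probes leave most members with 1 probe unchanged. The count of 437 was thus largely fixed in advance and does not measure robustness. The exceptions were the Ube2 median and the activator median, 0.67 with Psme4 included. In 19 of the alternative values the sign differed; the main values were all between -0.13 and 0.20. The count of members higher in UCP air at an unadjusted p was 3 with the block and 7 without it, and the block changed no call after adjustment. At an unadjusted p, centring gave 3 members higher in particle-free air and 1 lower in UCP air, beside 1 and 0 as deposited, and the fit by probe gave 4 higher in particle-free air. The share of all genes under the block, centring and the fit by probe is not given, so these changes cannot be set against it.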
